A study of Homo sapiens with 9 samples.

Results

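AP-1 is a family of dimeric transcription factors built from FOS, JUN and ATF proteins. The 10 genes described here were taken by symbol out of 62700 genes in the count table. They form 3 sets: a FOS side (FOS, FOSB, FOSL1, FOSL2), a JUN side (JUN, JUNB, JUND) and 3 partners of JUN proteins (ATF3, BATF, BATF3). Gene expression was measured by sequencing polyA-selected RNA from 293T cells, a human embryonic kidney line that carries the SV40 large T antigen and takes up plasmids readily. Cells were transfected with an empty vector, with a plasmid for HA-CIC(ex20)::NUTM1(ex6) or with a plasmid for HA-CIC::DUX4, with 3 libraries per plasmid. RNA was collected about 48 hours after reverse transfection of 300000 cells, and the labels' protocols place separate replicates on separate days. All groups therefore share the parental line, the transfection reagent and the vector step, and the comparisons of each fusion with empty vector use the same 3 control libraries. The share of cells that took up a plasmid is not given in the sources used here. Transient overexpression in 1 line is the whole model, and the fusion transcripts themselves were not analysed here.

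FOS and JUN proteins carry a basic region that contacts DNA and a leucine zipper that joins 2 subunits. FOS-side proteins do not form stable dimers with themselves and bind DNA as partners of JUN-side proteins, whereas JUN proteins can also pair with each other. FOS, FOSB, JUN, JUNB and ATF3 are textbook immediate early genes, transcribed within minutes of a growth factor or stress signal, and FOSL1 follows later in sustained ERK signalling. CIC is a repressor that binds TGAATGAA and TGAATGGA octamers and holds down genes of the ERK response, and its fusions to DUX4 or NUTM1 keep the CIC DNA-binding part and gain an activating part.

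Sequences around the starts of 3 members (FOS, FOSB and JUN) are shown first. The FOSB window holds a CIC octamer and the FOS window most of one. No other searched window of a member holds TGAATGAA, TGAATGGA or TGAATGA, those of ATF3 included. Other spellings of the octamer were not searched. Binding of the fusions at these matches was not tested here. RefSeq promoter windows of GRCh38.p14 (250 bases before and 50 after a start) were found for 8 of the 10 members, in 9 windows, since ATF3 has 2. FOSL1 and BATF3 had no entry. The submitters' processing notes name GRCh38 as the build. The RefSeq starts used for these windows differ from the ends of the gene models of GENCODE 29 used further on: the RefSeq start lies 54 bases inside the GENCODE gene for FOS, 1 base for FOSB, 280 bases for JUN and 410 bases for FOSL2. Stretches inside a GENCODE gene are therefore shown as 30 bases only. Sequences are printed 5′ to 3′ on the gene's strand, and capitals mark the octamer start TGAATGA, the cyclic AMP response core TGACGT and the AP-1-like TGACATCA on either strand, so that TCATTCA stands for the reverse complement of the octamer start.
FOS before its GENCODE start, chr14:75278578-75278773, plus strand: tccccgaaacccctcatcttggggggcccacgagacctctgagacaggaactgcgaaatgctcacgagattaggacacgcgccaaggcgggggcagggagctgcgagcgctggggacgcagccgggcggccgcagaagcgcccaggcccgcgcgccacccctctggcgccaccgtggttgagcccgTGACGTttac
FOS across its GENCODE start, chr14:75278758-75278787, plus strand: agcccgTGACGTttacacTCATTCAtaaaa
FOSB before its start, chr19:45467746-45467993, plus strand: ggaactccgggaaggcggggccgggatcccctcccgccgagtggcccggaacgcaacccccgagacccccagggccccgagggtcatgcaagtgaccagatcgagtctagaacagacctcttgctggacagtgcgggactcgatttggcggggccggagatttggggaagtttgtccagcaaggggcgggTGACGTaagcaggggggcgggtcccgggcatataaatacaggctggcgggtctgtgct
FOSB across its start, chr19:45467981-45468010, plus strand: gcgggtctgtgctTCATTCAtaagactcag
JUN, inside its GENCODE gene, chr1:58784096-58784125, minus strand: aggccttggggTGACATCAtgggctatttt

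In the FOSB window the full octamer TGAATGAA lay on the minus strand from position -3 to 5 around the start, counting the first base of the RefSeq transcript as 1. The FOS window held its first letters, TGAATGA, from -52 to -46 on the minus strand, without the last A. By the GENCODE gene model this FOS match lies just after the start, and those of FOSL2 and JUN below also lie inside the gene. TGAATGAA was present on either strand in 1.65% of 35116 windows of all genes, TGAATGGA in 1.03% and TGAATGA, which every TGAATGAA contains, in 4.01%. No other member window held any of the 3. TGACGT, the core of the cyclic AMP response element, lay from -64 to -59 in FOS, from -60 to -55 in FOSB and from -66 to -61 in FOSL2, and JUND held it 3 times further upstream, with 7.98% of all windows holding it. The whole element TGACGTCA, which contains TGACGT on both strands, was found in JUND alone among the members (1.85% of all windows). TGACATCA, an AP-1-like octamer, lay from -67 to -60 in JUN and from -123 to -116 in 1 ATF3 window (2.61% of all windows). The AP-1 site TGACTCA was found in FOSL2 at 5 to 11 (4.95%), and no member window held a CArG box (1.29%). Sites more than 250 bases before a start lay outside the windows, so a CArG box further upstream would not be seen. The 3 motifs in capitals were chosen after the sequences had been read, and these matches describe letters only.

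Library totals ranged from 16970771 to 33655445 counts. Of the members, 9 passed the abundance filter and BATF, a partner of JUN proteins in lymphocytes, did not. BATF had 2 counts in CIC::DUX4 replicate 1 and 0 in the other libraries, where 0 counts allow up to 0.0878 to 0.180 CPM depending on the library (3 counts, counting error only). NEFM, NEFL and VIM, which 293T cells are known to express, lay at 135 to 750.3 CPM in every library and PAX2 at 4.14 to 8.24 CPM. The blood gene HBB had 0 counts in all libraries, and CD3E and PTPRC had at most 5 and 24.

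Of the 4 FOS-side genes, 3 rose with both fusions (FOS, FOSB and FOSL1), and FOSL2 was not called in any comparison. FOS, the founding member of the family (ENSG00000170345, chromosome 14, 75278774 to 75282230 in GENCODE 29), was at 4.23, 4.42 and 4.25 CPM in the 3 empty vector libraries. It reached 13.5, 12.5 and 12.2 CPM under CIC::DUX4 and 52.7, 23.2 and 41.8 CPM under CIC::NUTM1. The 3 groups did not overlap, and the spread was smallest in the controls. FOS was thus 2.96-fold higher under CIC::DUX4, or 1.57 ± 0.26 on the log2 scale (SE, n = 3 per group; edgeR adjusted p = 0.0017). With CIC::NUTM1 it was 9.04-fold higher, or 3.18 ± 0.25 on the log2 scale (edgeR adjusted p = 1.65e-06). In bulk RNA, a change in few strongly affected cells and a smaller change in all cells cannot be told apart.

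FOSB (ENSG00000125740, chromosome 19, 45467995 to 45475179), which can replace FOS in dimers with JUN, was at 2.52, 3.396 and 3.05 CPM in empty vector. It was at 13.7, 10.5 and 12.4 CPM under CIC::DUX4 and at 30.4, 18.8 and 24.7 CPM under CIC::NUTM1. Again no library of 1 group reached another group. The log2 fold changes were 2.01 ± 0.19 under CIC::DUX4 (edgeR adjusted p = 2.47e-08) and 3.01 ± 0.18 under CIC::NUTM1 (edgeR adjusted p = 1.82e-11). FOSB overlaps ERCC1 on the other strand in GENCODE 29, and the use of strand in counting is not given in the sources used here, so its counts are uncertain to that extent.

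FOSL1 (FRA1, ENSG00000175592, chromosome 11, 65892049 to 65900573), a FOS-side protein without the strong activating part of FOS, had the largest change of the 9 tested members. It was close to silent in empty vector, with 22, 28 and 27 counts or 1.26, 0.820 and 1.08 CPM. With CIC::DUX4 it reached 13.7, 12.03 and 13.4 CPM, and under CIC::NUTM1 32.0 (32.04), 16.9 and 23.8 CPM. All fusion libraries lay far above the controls. FOSL1 was 12.7-fold higher under CIC::DUX4 (log2 3.67 ± 0.24, edgeR adjusted p = 1.92e-10) and 23.6-fold higher under CIC::NUTM1 (log2 4.56 ± 0.24, edgeR adjusted p = 4.5e-12).

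FOSL2 (FRA2, ENSG00000075426, chromosome 2, 28392448 to 28417312) differed from its 3 relatives. Its levels were 11.8, 9.81 and 9.22 CPM in empty vector, 6.60 (6.599), 9.39 and 9.76 CPM under CIC::DUX4, and 8.40, 10.6 and 9.74 CPM under CIC::NUTM1, with overlap between all groups. The log2 difference was -0.26 under CIC::DUX4 (95% interval -0.62 to 0.10, edgeR adjusted p = 0.457) and -0.09 under CIC::NUTM1 (-0.45 to 0.27, edgeR adjusted p = 0.801). FOSL2 overlaps 1 gene on each strand. The longest coding transcript of each FOS-side gene has 4 exons, and the 3 JUN-side genes have 1 exon each.

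**Figure D1:**
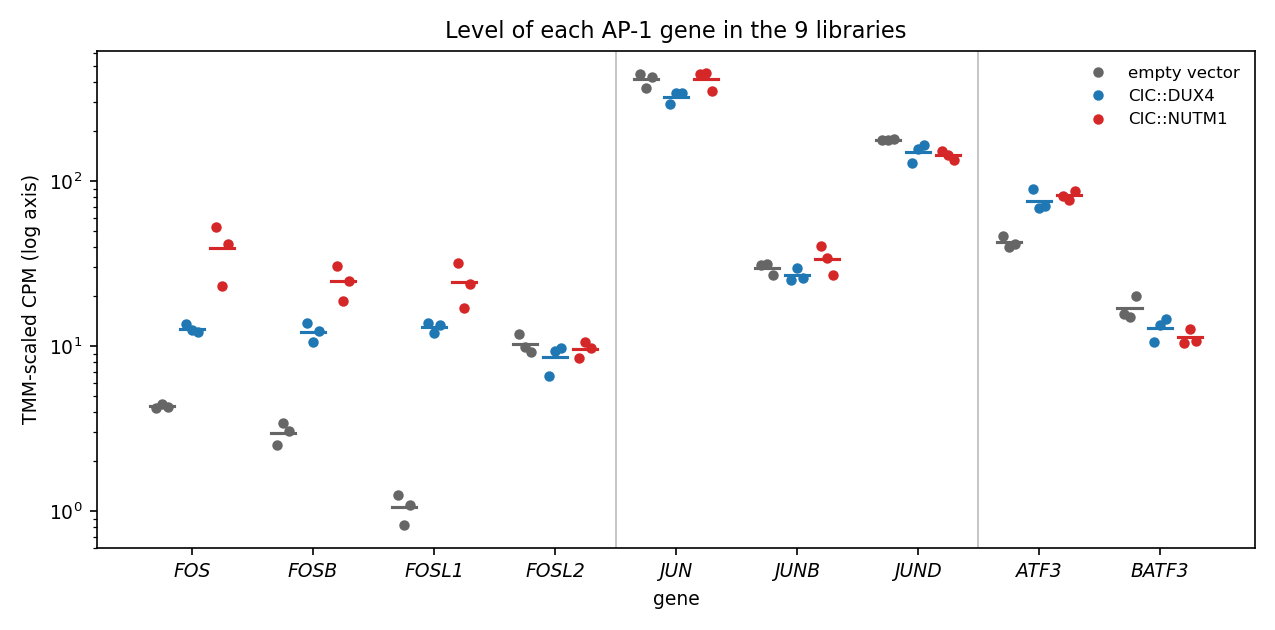
TMM-scaled CPM (log axis) of the 9 tested members, with each library as a point and the group mean as a line; vertical lines separate the FOS side, the JUN side and the partners. FOS, FOSB and FOSL1 step up from empty vector to CIC::DUX4 to CIC::NUTM1 without overlap, while JUN, JUNB and FOSL2 overlap between empty vector and CIC::NUTM1. BATF, at 0 counts in 8 of 9 libraries, is not drawn.

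No JUN-side gene was called higher with either fusion. JUN (ENSG00000177606, chromosome 1, 58780788 to 58784327), the most abundant member, was at 448, 366 and 424 CPM in empty vector, 444, 449 and 350.3 CPM under CIC::NUTM1, and 292, 339 and 341 CPM under CIC::DUX4. All 3 CIC::DUX4 libraries lay below all controls, and those of CIC::NUTM1 overlapped them. With CIC::DUX4 the log2 difference was -0.35 (95% interval -0.57 to -0.13) and just missed the threshold (edgeR adjusted p = 0.0532). It passed in 5 of 15 alternative analyses, among them DESeq2 (adjusted p = 0.00484) and the fit without empty vector replicate 2 (log2 -0.43, edgeR adjusted p = 0.00814). With CIC::NUTM1 it was 0.01 (-0.21 to 0.23, edgeR adjusted p = 0.9748), with a sign that changed between analyses.

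JUNB (ENSG00000171223, chromosome 19, 12791496 to 12793315), a JUN protein that is a weaker activator than JUN, was at 31.0 (31.01), 31.4 and 27.0 (27.05) CPM in empty vector. It was at 25.2, 29.8 and 25.9 CPM under CIC::DUX4 and at 40.4, 34.2 and 26.9 CPM under CIC::NUTM1. The groups overlapped. Its log2 difference was -0.15 under CIC::DUX4 (95% interval -0.40 to 0.11) and 0.18 under CIC::NUTM1 (-0.07 to 0.43), with edgeR adjusted p of 0.575 and 0.372. JUNB overlaps HOOK2 on the other strand.

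JUND (ENSG00000130522, chromosome 19, 18279760 to 18281622), the JUN protein present in resting cells, was the only JUN-side gene called lower. JUN, not called, had the larger log2 difference under CIC::DUX4 (-0.35). For JUND the controls were tightly placed at 178, 176 and 180 (179.9) CPM. CIC::NUTM1 libraries were at 151, 143 and 134 CPM and CIC::DUX4 libraries at 128, 157 and 165 CPM, all below the controls. JUND fell by 0.32 ± 0.08 (SE) on the log2 scale under CIC::NUTM1 (edgeR adjusted p = 0.00446). With CIC::DUX4 it fell by 0.25 ± 0.08 (edgeR adjusted p = 0.0429), but 5 of the 6 refits on fewer libraries lost this call. Its log2 difference was -0.15 (-0.146) without CIC::DUX4 replicate 1 (edgeR adjusted p = 0.379) and -0.29 without CIC::DUX4 replicate 2 (edgeR adjusted p = 0.0513). Leaving out empty vector replicate 1, 2 or 3 gave -0.25, -0.26 and -0.24 for JUND, with edgeR adjusted p of 0.103, 0.0946 and 0.153.

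Among the partners, ATF3 rose with both fusions and BATF3 fell under CIC::NUTM1. ATF3 (ENSG00000162772, chromosome 1, 212565334 to 212620777), a stress-induced factor that binds DNA with JUN proteins or with itself, was at 46.3, 39.6 and 41.7 CPM in empty vector. It rose to 89.4, 68.1 and 70.2 CPM under CIC::DUX4 and to 81.4, 76.4 and 87.5 CPM under CIC::NUTM1. Both fusion groups lay above the controls and overlapped each other. The log2 fold changes were 0.84 ± 0.10 (edgeR adjusted p = 8.77e-07) and 0.95 ± 0.10 (edgeR adjusted p = 7.85e-08), or 1.79- and 1.93-fold.

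BATF3 (ENSG00000123685, chromosome 1, 212686418 to 212699985), which has a leucine zipper but no activating part, lies 65640 bases beyond ATF3 in GENCODE 29. Its levels were 15.7, 14.9 and 20.2 CPM in empty vector, 10.6, 13.3 and 14.5 CPM under CIC::DUX4, and 10.5, 12.6 and 10.8 CPM under CIC::NUTM1. All fusion libraries lay below all controls. BATF3 fell by 0.58 ± 0.15 (SE) on the log2 scale under CIC::NUTM1 (edgeR adjusted p = 0.00984), and the log2 difference under CIC::DUX4 was -0.41 (95% interval -0.72 to -0.09, edgeR adjusted p = 0.113). Without empty vector replicate 3, the highest control, the CIC::NUTM1 value was -0.43 and no longer passed (edgeR adjusted p = 0.11). ATF3 and BATF3, with 4 other genes between them (1 of them protein-coding), moved in opposite directions under CIC::NUTM1. BATF, 240194 bases from FOS on chromosome 14, stayed at 0 counts in the CIC::NUTM1 libraries.

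In counts, 4 of the 9 tested members were higher under CIC::NUTM1 (FOS, FOSB, FOSL1, ATF3) and 2 were lower (JUND, BATF3), where 11.5% of the 17576 tested genes were called higher and 3.83% lower. These are 2018 higher and 673 lower genes, a split that became 1783 and 1138 with library totals as scaling and 1807 and 1124 with upper quartile factors. With CIC::DUX4 the same 4 were higher and 1, JUND, was lower, where 6.96% of tested genes were called higher and 1.27% lower. The median log2 difference of the FOS side was 3.09 under CIC::NUTM1 and 1.79 under CIC::DUX4. For the JUN side it was 0.01 and -0.25, and for all tested genes it was near 0. FOS, FOSB and FOSL1 were called with a log2 difference of 1 or more for either fusion, where 4.87% (CIC::NUTM1) and 3.82% (CIC::DUX4) of tested genes were. All libraries lay above all controls for the 4 higher members with either fusion (18.2% of tested genes under CIC::NUTM1 and 14.8% under CIC::DUX4). They lay below all controls for JUND and BATF3 under CIC::NUTM1 (12.9%) and for JUN, JUND and BATF3 under CIC::DUX4 (11%).

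In the direct comparison of both fusions, FOS, FOSB and FOSL1 were higher under CIC::NUTM1 and no other member was called. That is 3 of 9 tested members, where 4.97% of tested genes were called higher under CIC::NUTM1 and 1.64% lower. That split, 874 higher and 288 lower genes, became 695 and 437 with library totals as scaling. FOS and FOSB passed with a difference of at least 1 on the log2 scale, where 0.916% of tested genes did, but FOSB was under 1 in 9 of 15 alternative analyses (0.83 to 0.999). FOS, FOSB, FOSL1 and JUN had all CIC::NUTM1 libraries above all CIC::DUX4 libraries (12.6% of tested genes), and 0 members had all below (9.36%). FOS differed most, by 1.61 ± 0.23 (SE) on the log2 scale or 3.05-fold (edgeR adjusted p = 0.000858). FOSB differed by 1.00 ± 0.16 (edgeR adjusted p = 0.000191) and FOSL1 by 0.89 ± 0.18 (edgeR adjusted p = 0.00234). The order of the genes was therefore not that of the comparisons with empty vector, in which FOSL1 changed most with either fusion. The intervals of FOS (1.11 to 2.11) and FOSL1 (0.52 to 1.26) overlapped, and the difference between these genes was not tested.

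CIC::NUTM1 replicate 2 was the lowest of its group for all 3 genes and replicate 1 the highest. Replicate 2 also had the largest total of the group, 26465985 counts against 17123926 and 19818088, and the part of depth in this spread was not tested. Without replicate 2 the differences between the fusions were 1.89, 1.17 and 1.10 for FOS, FOSB and FOSL1. Without replicate 1 they were 1.34, 0.83 and 0.64, with edgeR adjusted p of 1.78e-05, 0.00297 and 0.0299.

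For the other members the fusions were not shown to differ. ATF3 differed by 0.10 (95% interval -0.09 to 0.30, edgeR adjusted p = 0.636), so that its rise was close in size with both fusions while that of FOS was not. FOSL2 differed by 0.17 (-0.19 to 0.53), JUND by -0.07 (-0.23 to 0.09) and BATF3 by -0.17 (-0.49 to 0.15), with edgeR adjusted p of 0.637 to 0.713. JUN was 0.36 ± 0.10 (SE) higher under CIC::NUTM1, with all 3 libraries above those of CIC::DUX4, and missed the threshold (edgeR adjusted p = 0.0565). It passed in 6 of 15 alternative analyses, among them DESeq2 (adjusted p = 0.00645) and the fit without CIC::NUTM1 replicate 3 (log2 0.45, edgeR adjusted p = 0.000848). JUNB differed by 0.33 (95% interval 0.07 to 0.58, edgeR adjusted p = 0.129) and passed in that same fit (log2 0.45, edgeR adjusted p = 0.0252).

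**Figure D2:**
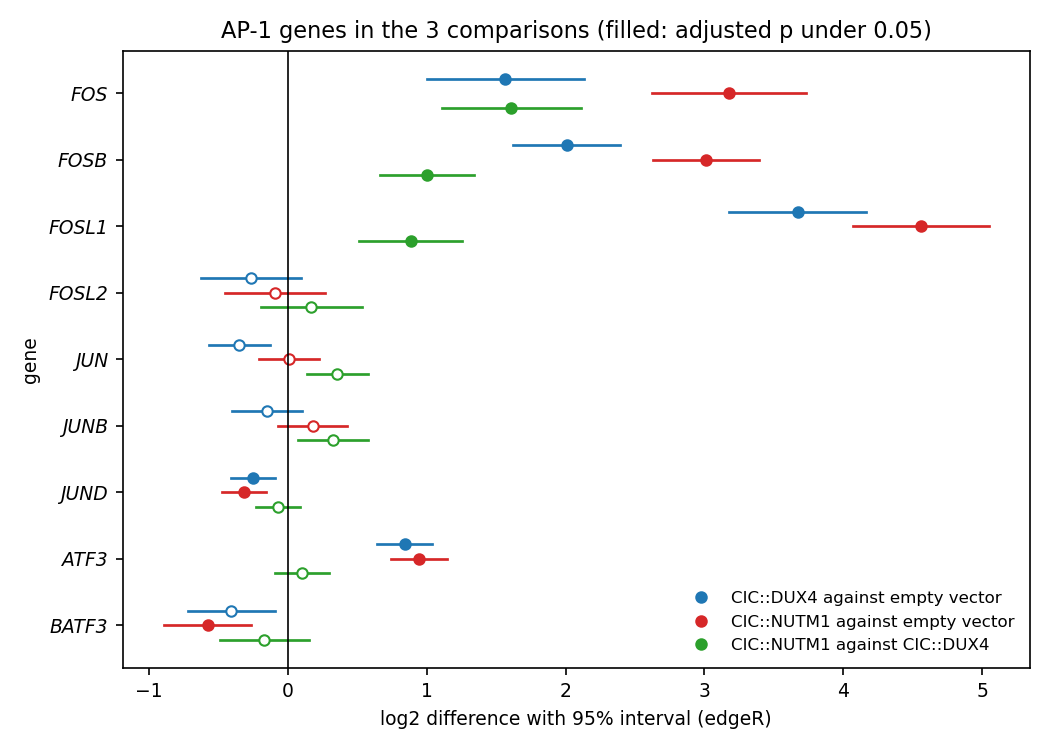
Fitted log2 difference of each tested member with its 95% interval, in 3 colours for the 3 comparisons; filled points have an edgeR adjusted p under 0.05 over all tested genes. FOS, FOSB and FOSL1 are filled in every comparison, FOSL2, JUN and JUNB in none.

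Levels of different genes were compared per length, as counts per kilobase of exon scaled to the same total in each library (TPM). In empty vector cells the order was JUN at 463 ± 38.0 TPM (37.97; SD, n = 3), JUND at 380 ± 6.07 (380.1), JUNB at 65.2 ± 5.96, ATF3 at 41.9 ± 2.62 and BATF3 at 24.8 ± 3.95. FOSL2 at 5.70 (5.703) ± 0.682 and FOS at 5.29 ± 0.244 overlapped, as did FOSL1 at 2.21 ± 0.421 and FOSB at 2.14 ± 0.361. Other neighbours in this order did not overlap. The lengths used here count every exon of a gene, and places in the order depend on that choice. ATF3 has 4040 such bases but 2103 in its longest transcript, while JUNB has 1820 by either measure. The place of ATF3 relative to JUNB is therefore not settled, and the order was not computed with the longest transcript. With the lengths used, every JUN-side gene was above every FOS-side gene at baseline.

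With CIC::DUX4 FOSL1 stood in place 5 at 27.2 ± 1.93 TPM (SD, n = 3), above BATF3, FOS at 15.5 ± 1.10 and FOSB at 8.66 ± 1.18. Its libraries did not overlap those of BATF3, the next in order. FOSL2, at 4.71 ± 0.882 TPM, was last of the detected members. With CIC::NUTM1 FOSL1 and FOS were level by the lengths used, at 49.8 ± 14.7 and 46.9 ± 17.2 TPM. Their order depends on that choice. FOS has 3238 exon bases but 2158 in its longest transcript, whereas FOSL1 has 1887 and 1669. The libraries of FOSL1 overlapped those of JUNB at 72.1 ± 13.3 TPM, and those of JUNB overlapped ATF3 at 78.7 ± 5.69 TPM. JUN had the highest mean with both fusions, at 360 (359.8) ± 26.2 TPM under CIC::DUX4 and 455 ± 58.1 TPM under CIC::NUTM1, but its libraries overlapped those of JUND at 317 ± 35.9 TPM under CIC::DUX4.

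Summed over its 4 genes, the FOS side was at 15.9, 15.4 and 14.7 TPM in empty vector, 59.3, 53.2 and 55.7 TPM under CIC::DUX4, and 152, 82.5 and 123 TPM under CIC::NUTM1. The 3 JUN-side genes summed to 908 ± 29.4 TPM in empty vector, 735 ± 64.4 TPM under CIC::DUX4 and 825 ± 82.9 TPM under CIC::NUTM1. JUN-side transcripts therefore outnumbered FOS-side ones by a ratio of 59.2 ± 2.67 in empty vector, 13.2 ± 1.81 under CIC::DUX4 and 7.42 ± 2.76 under CIC::NUTM1. The JUN-side sums were at most 778 TPM under CIC::DUX4, below the lowest empty vector library at 877 TPM. The highest CIC::NUTM1 sum, 874 TPM, lay only just below that library. With the longest transcript as length, the JUN-side sums of CIC::NUTM1 and empty vector overlapped. TPM also leaves out the TMM factors used for the other levels, and sums with them were not compared. A lower JUN-side sum under CIC::NUTM1 is therefore not shown. In the TMM-scaled fit JUND was lower there (log2 -0.32), while JUN (0.01) and JUNB (0.18) were not. As a share of both sides, FOS-side transcripts made up 1.58 to 1.73% in empty vector, 6.40 (6.402) to 8.24% under CIC::DUX4 and 8.62 to 14.9% under CIC::NUTM1. The shares of the fusions did not overlap, although the lowest CIC::NUTM1 library was close to the highest CIC::DUX4 library. They follow from the members' levels above and were not tested.

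The make-up of the FOS side changed as well. FOSL2 was 37.1 ± 3.00 (2.997) percent of FOS-side transcripts in empty vector, 8.47 ± 1.95 percent under CIC::DUX4 and 4.77 ± 2.08 percent under CIC::NUTM1. FOS itself was 34.5 ± 2.11 percent, 27.7 ± 1.39 percent and 38.7 ± 3.94 percent in the same order. With the longest transcript as length, FOSL2 was 30.9 percent and FOS 40.3 percent in empty vector. Which of these genes was larger at baseline thus depended on the length. The share of FOSL2 was again lower with the fusions, at 7.06 percent under CIC::DUX4 and 3.86 percent under CIC::NUTM1. On the JUN side, JUND made up 41.9 ± 2.01 percent in empty vector, 43.0 (43.02) ± 1.40 percent under CIC::DUX4 and 36.3 ± 2.18 percent under CIC::NUTM1.

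**Figure D3:**
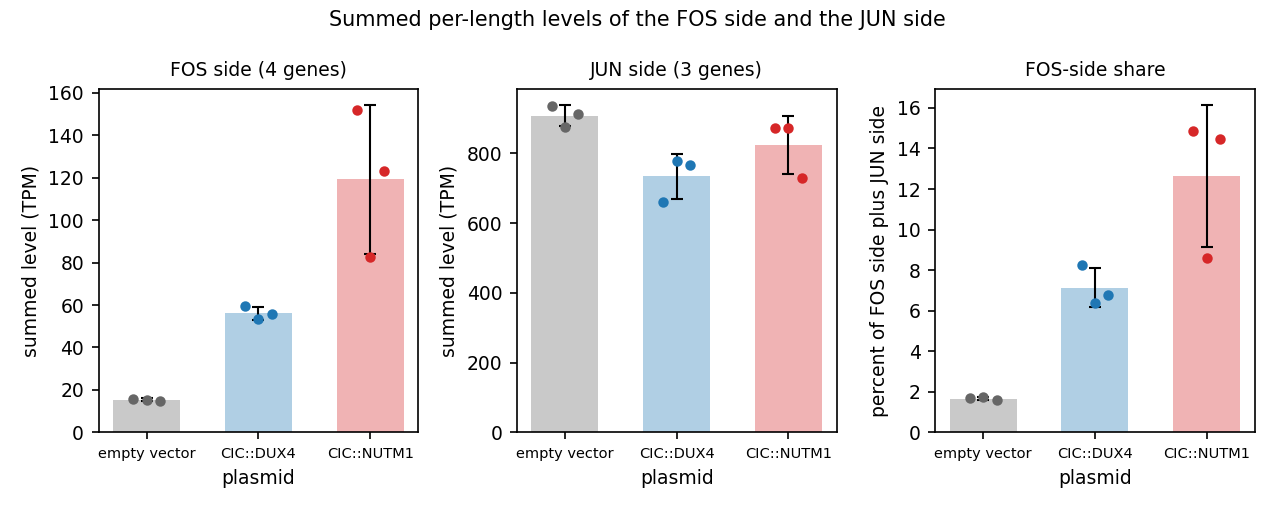
Summed TPM of the FOS side and of the JUN side, and the FOS-side share of both in percent, with bars at the mean, error bars of 1 SD and a point per library (n = 3). The FOS-side sum rises from about 15 TPM in empty vector to a mean of 56.1 TPM under CIC::DUX4 and 119 TPM under CIC::NUTM1. The JUN-side mean is 908, 735 and 825 TPM in the same order.

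The members' levels were also set against those of other genes, as a description over the 9 libraries, whose correlation reflects mainly the 3 groups. FOS, FOSB and FOSL1 ran together, with Pearson r of log2 CPM of 0.974 (FOS and FOSB), 0.977 (FOSB and FOSL1) and 0.935 (FOS and FOSL1). JUN had an r of -0.04 with FOS (-0.0363) and 0.702 with JUNB. JUND ran against ATF3, with an r of -0.904. Among 12118 other genes with at least 100 counts in a group mean, the 5 closest to FOS were RNF128, COTL1, ZNF423, SAMD4A and TECTA (r = 0.991 to 0.993). ZNF423, a zinc finger factor, was at 6.09 CPM in empty vector, 15.8 under CIC::DUX4 and 45.9 under CIC::NUTM1. The 5 closest to FOSL1 were EPHB3, CNGB1, FOXC2, SPRED2 and ETV1 (r = 0.994 to 0.996). SPRED2 inhibits RAS activation and ETV1 is a PEA3-type ETS factor. ETV1 was at 3.17, 34.8 and 62.1 CPM in the same order. The genes closest to JUN, from TNFRSF21 (r = 0.944) to ABHD4 (r = 0.923), differed little between groups: TNFRSF21 was at 32.7, 28.7 and 33.8 CPM.

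Genes around AP-1 were examined in 3 lists. Regulators of FOS and JUN genes (20 genes, all tested) include SRF and its ETS partners, MRTF coactivators, MEF2 factors and JUN-directed kinases. With CIC::NUTM1, 5 were higher and 0 lower (median log2 difference 0.09), and under CIC::DUX4 3 were higher and 0 lower (median -0.00296). Over all tested genes the shares were 11.5% higher and 3.83% lower under CIC::NUTM1, 6.96% and 1.27% under CIC::DUX4, and 4.97% and 1.64% between the fusions, and the counts of all 3 lists are to be read against these. SRF, ELK1, ELK3 and ELK4, the factors of the serum response element, were called in no comparison, with log2 differences from empty vector of -0.30 to 0.14. The JUN kinases MAPK8 and MAPK9 lay between -0.11 and 0.15. MAPK10, the JUN kinase of neural tissue, was low, at 1.93 CPM in empty vector, 2.40 (2.399) under CIC::DUX4 and 1.24 under CIC::NUTM1, and was not called (edgeR adjusted p = 0.0914 to 0.669). MRTFA, an SRF coactivator, rose from 59.4 ± 2.703 CPM to 86.6 ± 4.25 CPM under CIC::DUX4 and 85.4 ± 3.63 CPM under CIC::NUTM1 (SD, n = 3). FBXW7, the ubiquitin ligase subunit that targets JUN for degradation, rose from 24.0 (23.96) ± 3.72 CPM to 32.9 ± 0.941 CPM and 44.3 ± 3.24 CPM.

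MEF2C, a MADS-box factor, rose under CIC::NUTM1 to 51.6 ± 6.09 CPM from 24.8 ± 1.11 CPM and was at 23.3 ± 1.15 CPM under CIC::DUX4. The fusions differed at MEF2C by 1.14 ± 0.10 (SE, log2; edgeR adjusted p = 3.39e-08) and at FBXW7 by 0.42 ± 0.10 (edgeR adjusted p = 0.012). The FBXW7 difference was 0.39 and 0.41 without CIC::NUTM1 replicate 3 or CIC::DUX4 replicate 2 and no longer passed (edgeR adjusted p = 0.0711 and 0.0559). Without empty vector replicate 3 its rise under CIC::DUX4 was also lost (log2 0.37, edgeR adjusted p = 0.0621). MAPK14 (p38) rose by 0.36 ± 0.07 under CIC::DUX4 (edgeR adjusted p = 0.00121) and by 0.22 ± 0.07 under CIC::NUTM1 (edgeR adjusted p = 0.0387), with no call between the fusions (edgeR adjusted p = 0.318). MAPK7 (ERK5) rose by 0.37 ± 0.10 under CIC::NUTM1 (edgeR adjusted p = 0.0163), a call lost in 4 of the 6 refits without 1 library (without empty vector or CIC::NUTM1 replicate 1 or 3, edgeR adjusted p = 0.0556 to 0.102). The count of higher regulators was 3 without each of those 4 libraries, and between the fusions it was 1 in place of 2 without CIC::NUTM1 replicate 3 or CIC::DUX4 replicate 2.

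Of 34 other bZIP factors, 33 were tested: 5 were higher and 2 lower under CIC::NUTM1 (all genes 11.5% and 3.83%; median log2 difference 0.05), 5 higher and 1 lower under CIC::DUX4 (6.96% and 1.27%; median 0.03). Between the fusions, 3 were higher under CIC::NUTM1 and 0 lower (4.97% and 1.64%). MAFF, a small MAF protein without an activating part, rose from 2.43 ± 0.277 CPM to 24.3 ± 3.15 CPM under CIC::DUX4 and 20.6 ± 6.02 CPM under CIC::NUTM1, the largest change of this list with either fusion. BACH2, a repressor that pairs with small MAF proteins, rose from 10.7 ± 0.631 CPM to 33.2 ± 8.03 CPM and 64.6 ± 15.6 CPM. MAF rose under CIC::NUTM1 from 86.0 (86.04) ± 4.52 CPM to 172 ± 29.6 CPM, and was higher there than under CIC::DUX4 by 0.84 ± 0.09 (SE, log2; edgeR adjusted p = 2.46e-06). CEBPB, a C/EBP factor of the acute phase response, went from 63.1 ± 4.62 CPM to 94.5 ± 6.19 and 140.1 ± 34.7 CPM.

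Several calls of this list lay near the threshold and were lost in refits whose fold changed little. CEBPB under CIC::DUX4 (log2 0.59, edgeR adjusted p = 0.0297) was lost in 5 of 6 refits without 1 library, all but that without CIC::DUX4 replicate 2, at log2 0.52 to 0.63 (edgeR adjusted p up to 0.12). DBP under CIC::DUX4 (0.41, edgeR adjusted p = 0.0467) was lost in 5 of 6, all but that without empty vector replicate 2, at log2 0.33 to 0.44 (edgeR adjusted p up to 0.254). It was also lost with DESeq2 size factors, upper quartile factors and a minimum of 10 counts (edgeR adjusted p = 0.0518 to 0.0634). Between the fusions BACH2 (0.95, edgeR adjusted p = 0.0143) was lost in 4 of 6, without CIC::NUTM1 replicate 1 or 3 and CIC::DUX4 replicate 2 or 3, at log2 0.82 to 0.86 (edgeR adjusted p = 0.05003 to 0.0693), and with only the 2 groups fitted (0.94, edgeR adjusted p = 0.0709). CEBPB (0.56, edgeR adjusted p = 0.0392) was lost in 4 of 6, without CIC::NUTM1 replicate 3 or any CIC::DUX4 library, at log2 0.52 to 0.61 (edgeR adjusted p = 0.0662 to 0.167). It was also lost with DESeq2 size factors, upper quartile factors and only the 2 groups (edgeR adjusted p = 0.05002 to 0.0835). Leaving out empty vector replicate 1 or CIC::DUX4 replicate 3 gave 3 higher bZIP factors under CIC::DUX4, leaving out empty vector replicate 3 or CIC::DUX4 replicate 1 gave 2, and the count between the fusions was 1 without CIC::NUTM1 replicate 3 or CIC::DUX4 replicate 2 or 3. The lower bZIP factors numbered 0 to 1 under CIC::NUTM1 without empty vector replicate 1, 2 or 3 or CIC::NUTM1 replicate 3, and 0 under CIC::DUX4 without empty vector replicate 2 or 3 or any CIC::DUX4 library.

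A list of 32 genes described as AP-1 targets had 24 tested members. With CIC::NUTM1, 11 were higher and 3 lower (all genes 11.5% and 3.83%; median log2 difference 0.24). Under CIC::DUX4 7 were higher and 1 lower (6.96% and 1.27%; median 0.22), and between the fusions 3 were higher under CIC::NUTM1 and 0 lower (4.97% and 1.64%). The lower count under CIC::DUX4 was 2 without empty vector replicate 2 or CIC::DUX4 replicate 3. SPP1, which encodes osteopontin, had 1 to 5 counts in empty vector libraries and reached 2.29 ± 0.446 CPM under CIC::DUX4 and 32.2 ± 8.69 CPM under CIC::NUTM1. THBS1, a matrix glycoprotein gene, had 5 to 6 counts in empty vector and reached 0.769 ± 0.367 CPM and 7.70 ± 1.10 CPM (7.705 and 1.096). LIF, a cytokine of the interleukin 6 family, rose from 1.56 ± 0.176 CPM to 8.71 ± 2.25 and 6.58 ± 1.29 CPM. CCND1, the G1 cyclin D1, rose from 87.0 (87.02) ± 9.36 CPM to 241 ± 26.4 and 383 ± 70.7 CPM.

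HBEGF, a ligand of the EGF receptor, rose with both fusions, by 0.88 ± 0.18 (SE, log2) under CIC::DUX4 (edgeR adjusted p = 0.00151) and by 0.91 ± 0.18 under CIC::NUTM1 (edgeR adjusted p = 0.000652). HMOX1, the heme-degrading oxygenase, fell by 0.59 ± 0.12 under CIC::DUX4 (edgeR adjusted p = 0.00207) and fell by 0.51 ± 0.12 under CIC::NUTM1 (edgeR adjusted p = 0.00447). Neither was called between the fusions (edgeR adjusted p = 0.956 and 0.819). CCND1 differed between the fusions by 0.67 ± 0.14 (edgeR adjusted p = 0.0251), a call lost in 4 of 6 refits, without CIC::NUTM1 replicate 1 or 3 and CIC::DUX4 replicate 2 or 3 (edgeR adjusted p = 0.0694 to 0.133). The urokinase receptor gene PLAUR was at 6.26 CPM in empty vector, 6.26 under CIC::DUX4 and 7.05 under CIC::NUTM1 and was not called (edgeR adjusted p = 0.667 to 0.994). Among the 8 untested genes were MMP1, MMP3 and MMP9, for which no library had more than 14 counts. With CIC::NUTM1, MMP10 and MMP13 were called higher, at log2 3.72 and 3.55 (edgeR adjusted p = 0.0056 and 0.00985). They had 0 to 4 counts per empty vector library and 13 to 18 and 9 to 16 under CIC::NUTM1. Neither was called under CIC::DUX4 (edgeR adjusted p = 0.234 and 0.0651). Many of these genes have other regulators, and the list carries no measure of AP-1 binding.

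**Figure D4:**
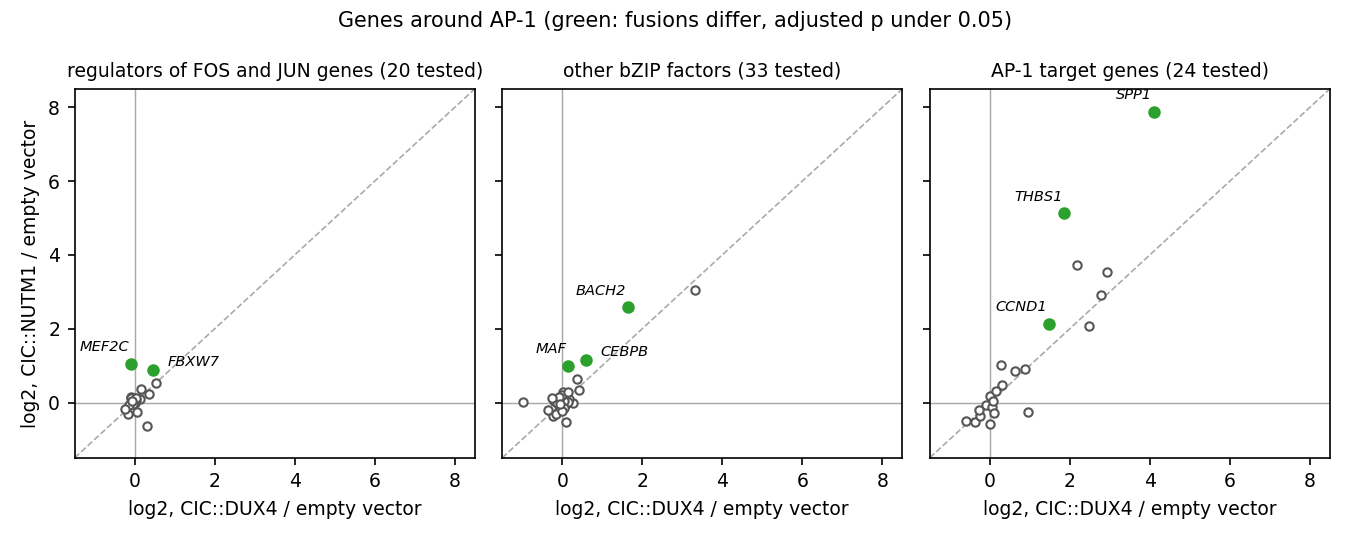
Log2 difference from empty vector under CIC::DUX4 (x axis) and under CIC::NUTM1 (y axis) of the tested genes of 3 lists, with the line of equal differences dashed; both axes share the same controls. Green points, named, differ between the fusions (edgeR adjusted p under 0.05): 2 regulators, 3 bZIP factors and 3 targets, all above the line.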

How the data were processed

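The deposited tables hold raw counts by Ensembl gene ID and log2 CPM by gene name, 1 column per library, which match the library names in the labels. The submitters' processing notes name STAR 2.7.10b, R 4.2.2, edgeR 3.40.2 and GRCh38, without roles. The counting program, the annotation and the use of strand are not given in the sources used here. For the 9 tested members the deposited log2 CPM equalled log2 CPM computed here after TMM scaling, prior count 2.

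Counts of all 9 libraries were fitted with edgeR 4.0.16 (R 4.3.3): filterByExpr kept 17576 of 34765 genes with a count, TMM scaling, robust quasi-likelihood test with 1 mean per group, Benjamini-Hochberg over all tested genes, calls at an adjusted p under 0.05. Levels are TMM-scaled CPM. SE and 95% intervals come from the F statistic. TPM used GENCODE 29 exon lengths, which held for 58276 genes. Alternatives used DESeq2 1.42.0, limma 3.58.1 (limma-trend), other scalings and filters, 2-group fits, a replicate block and libraries left out in turn. Figures used matplotlib 3.10.9.

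The members and lists were chosen with earlier results of these data known. All members are named. Of each list, up to 4 called genes per comparison with the largest change and a mean of at least 100 counts are named. Further genes were named by role after their values were seen (SRF, ELK1, ELK3, ELK4, MAPK8, MAPK9, MAPK10, PLAUR, MMP10, MMP13, and HBEGF, HMOX1 and MAPK14 under CIC::NUTM1 and untested targets). Libraries of a group differed by more than counting noise (chi-square per degree of freedom 5.73 to 9.71).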

Additional observations from a re-analysis of the deposited data

How the results depend on the processing

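FOS, FOSB, FOSL1 and ATF3 kept their direction and calls against empty vector in all 15 alternatives of each comparison, and FOS, FOSB and FOSL1 theirs between the fusions. The number of lower members depended most on the setting. With CIC::DUX4 it was 2 with DESeq2 size factors, DESeq2, no filter or only the 2 groups fitted, 0 with at least 10 counts in every library, and 0 to 1 over refits without 1 library. Asking for a log2 difference of at least 1 left 0 lower members with either fusion. With CIC::NUTM1 the lower members numbered 1 to 2, and between the fusions the higher ones 3 to 5, over refits without 1 library. JUN under CIC::NUTM1 changed sign to -1.65e-05 with DESeq2 size factors, -0.03 (-0.0349) with library totals, -0.03 (-0.0334) with upper quartile factors, -0.01 (-0.0127) with no filter, -0.000328 with DESeq2 and -0.07 to 0.09 (-0.0745 to 0.0942) over refits without 1 library (-0.0568 and -0.046 without CIC::NUTM1 replicate 2 or 1). FOSL2 under CIC::NUTM1 was 0.01 (0.00898) without empty vector replicate 1 (range -0.17 to 0.01 over refits without 1 library), and JUND between the fusions 0.0025 without CIC::DUX4 replicate 3 (range -0.17 to 0.0025), none of them called. With the longest transcript as length, the FOS side summed to 14.0 (13.99), 51.4 and 112 TPM (empty vector, CIC::DUX4, CIC::NUTM1). The JUN side summed to 646, 526 and 588 TPM in the same order. The FOS-side share was 2.12%, 8.96% and 16.0%, and the ratio of JUN side to FOS side was 46.2, 10.3 and 5.63. Only the length differed. Over all genes, the lower count under CIC::DUX4 was 380 with no filter, 407 with only the 2 groups and 60 to 229 over refits without 1 library in place of 224, and the higher count 774 with at least 10 counts in place of 1224; library totals gave 437 lower genes between the fusions in place of 288. Library totals and upper quartile factors gave 1138 and 1124 lower genes under CIC::NUTM1 in place of 673, and 278 to 977 over refits without 1 library (278 without empty vector replicate 3). Between the fusions the higher genes numbered 516 to 940 over such refits in place of 874 (516 without CIC::NUTM1 replicate 3) and the lower ones 156 to 324. With both scalings the members' counts stayed at 4 higher and 2 lower. Both scalings called 2 lower regulators of FOS and JUN genes there in place of 0. A minimum of 10 counts in every library left 7 higher targets under CIC::NUTM1 in place of 11 and 1 between the fusions in place of 3, with fewer genes tested.

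Replicate numbers were not treated as pairs. The protocols name separate days for separate replicates but tie no number across groups to a day, so shared days cannot be told from the labels. Deviations from the group means correlated at -0.03 to 0.08 (-0.0308 to 0.0753) for same-numbered libraries of different groups. For differently numbered libraries of different groups they correlated at -0.11 to 0.07 (-0.108 to 0.0698). With the replicate number as a block, the higher members numbered 4, 4 and 3 and the lower 2, 0 and 0 (CIC::NUTM1, CIC::DUX4, between the fusions), JUND under CIC::DUX4 being the call lost (edgeR adjusted p = 0.0524). BATF was left out by the abundance filter and was tested, and not called, with no filter. The FOSL1 controls rest on 22 to 28 counts each.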
